A study of Mus musculus with 4 samples.

Results

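Small nucleolar RNA host genes are transcribed into long noncoding RNAs whose introns are cut out and trimmed into small nucleolar RNAs (snoRNAs), the guides that direct chemical modification of ribosomal RNA. The spliced exons that remain often carry short reading frames that end well before the last exon junction. Ribosomes that stop there can trigger nonsense-mediated decay, a pathway that removes RNAs while they are being translated, so such RNAs usually gain abundance when translation is blocked. Gas5, Snhg1, Snhg3, Snhg6, Snhg8 and Snhg12 were chosen by symbol as 6 RNAs known for this behaviour. Of these, Snhg6 and Snhg12 matched the counted genes by symbol and identifier, 2 of 31053 genes, and the results below are about them. Gas5, Snhg1, Snhg3 and Snhg8 were not analysed here.

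The animals were 4 male C57BL/6J mice aged 90 days. The whole brain of each was dissociated with enzymes and gave 1 library of single-cell RNA (10x Genomics 3′ version 2). In 2 animals no inhibitors were used. In the other 2, actinomycin D and triptolide, which block transcription, were present from perfusion onward, and anisomycin, which blocks translation, was present during dissection and digestion. The cocktail thus targets both the synthesis of these RNAs and the translation on which their decay depends, and these effects cannot be told apart. The study used the cocktail to ask which transcripts arise during dissociation. Here the comparison asks whether the level of Snhg6 and Snhg12 differed with and without inhibitors, in each cell class.

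After filtering, 9861 of 12487 barcodes were kept, with 20721758 unique molecular identifiers (UMIs, each marking 1 captured RNA molecule). Libraries held 4525167 to 6098914 UMIs in kept cells, with median depths of 1439 to 1685 UMIs per cell. Cells were grouped into 14 classes named by marker genes, hence "microglia-like", and 166 cells stayed unnamed. The 8 classes with at least 20 cells in every animal were tested. All 4 libraries belonged to a single batch on the labels, and 67 barcodes recurred across libraries. Olfactory ensheathing-like cells came only from replicate 1 of each group, with 29 cells without and 32 with inhibitors. As a check of the labels, Junb, an immediate-early transcription factor, had 1433 and 1143 CPM (UMIs of a gene as parts per 1e6 UMIs, with library sizes scaled by the trimmed mean of M values, TMM) in microglia-like cells without inhibitors, against 238 and 216 with them. Dusp1, a phosphatase of the same early response, had 360 and 245 against 9.66 and 3.30 CPM, and Fos 801 and 410 against 3.86 and 2.47 CPM on the same scale. All 3 were lower in both inhibitor-treated animals, although edgeR did not call Fos there (log2 fold change -7.55, adjusted p 0.579).

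Snhg6 (ENSMUSG00000098234) lies on the minus strand of chromosome 1 from 9941959 to 9944118 in the mm10 (GRCm38) genome and is annotated in GENCODE vM21 as a long intergenic noncoding RNA. It holds Snord87 in an intron. Its 3′ end overlaps the end of the coding gene Mcmdc2 on the opposite strand over 127 bases. Whether counting used strand is not given in the sources used here, so reads in that overlap are uncertain, but Mcmdc2 itself had 26 UMIs in all kept cells against 761 of Snhg6. Snhg12 (ENSMUSG00000086290) lies on the plus strand of chromosome 4 from 132308623 to 132311024, with the same annotation. Its introns hold Snora16a, Snora44, Snora61 and Snord99. The coding gene Trnau1ap lies 739 bases beyond it on the other strand.

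A short reading frame that ends before the last exon junction, as described above, was looked for in an annotated spliced transcript of each gene. The first 300 bases of the annotated transcript with the most exons are shown for each gene, from GENCODE vM21 transcripts, with the first reading frame in capitals from start codon to stop codon.
Snhg6-203: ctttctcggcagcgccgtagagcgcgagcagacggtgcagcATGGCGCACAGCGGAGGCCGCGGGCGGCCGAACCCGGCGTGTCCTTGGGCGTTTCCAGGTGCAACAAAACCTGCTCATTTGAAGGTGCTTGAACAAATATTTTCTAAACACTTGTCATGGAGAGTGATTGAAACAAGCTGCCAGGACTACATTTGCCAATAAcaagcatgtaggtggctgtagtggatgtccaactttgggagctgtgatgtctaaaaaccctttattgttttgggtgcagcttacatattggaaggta
Snhg12-206: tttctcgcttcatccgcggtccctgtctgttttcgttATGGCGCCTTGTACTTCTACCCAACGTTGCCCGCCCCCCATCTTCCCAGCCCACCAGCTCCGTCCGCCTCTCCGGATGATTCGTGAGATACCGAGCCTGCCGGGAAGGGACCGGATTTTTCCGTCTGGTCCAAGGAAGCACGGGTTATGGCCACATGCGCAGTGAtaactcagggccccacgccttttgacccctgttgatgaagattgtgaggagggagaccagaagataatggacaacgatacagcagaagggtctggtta
In Snhg6-203, a transcript of 473 bases and 4 exons, the first start codon opens at base 42 and the frame ends at base 203 after 54 codons. The stop lies 73 bases before the last exon junction, with 2 junctions downstream. In Snhg12-206, of 606 bases and 5 exons, the frame runs from base 38 to base 202 over 55 codons and ends 213 bases before the last junction, with 4 junctions downstream. In both transcripts this first frame is also the longest. Of 5 annotated transcripts of Snhg6 and 10 of Snhg12, only the one shown was read. Choosing the transcript with the most exons favours junctions downstream of a stop. How often other noncoding transcripts hold such a frame was not counted. Counts near the 3′ end do not tell which transcript was present, so decay of the measured RNAs cannot be read from these sequences. A pyrimidine-rich start, as found in RNAs of the translation machinery, stands at the head of both sequences. The letters CTTTCTC, searched on the transcribed strand within the first 20 bases, occur in 269 of 141767 annotated transcripts (0.190%), among them 1 of 5 of Snhg6 (the one shown) and 3 of 10 of Snhg12 (not the one shown). A letter match describes the sequence and shows no regulation.

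Both RNAs were detected at low levels in every library, and neither separated the groups in the sums over all cells. Levels are given as CPM with the total UMIs of the summed cells as the base. Snhg6 had 42.5 and 28.5 CPM in the 2 animals without inhibitors and 45.1 and 33.6 CPM in the 2 with inhibitors, from 207, 174, 204 and 176 UMIs. The groups overlapped, and within each group replicate 1 was the higher. Snhg12 had 21.6 and 19.2 CPM without and 20.6 and 23.3 CPM with inhibitors, from 105, 117, 93 and 122 UMIs, and again the groups overlapped. In such sums, a change in how many cells of a type were recovered and a change of RNA per cell cannot be told apart.

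The fitted changes were small against their errors. For Snhg6 the log2 fold change, with over without inhibitors, was 0.08 (SE 0.22, edgeR adjusted p 0.962), and its 95% interval ran from a 0.739-fold to a 1.52-fold level. For Snhg12 it was 0.04 (SE 0.16, edgeR adjusted p 0.973), with an interval from 0.802-fold to 1.32-fold. An increase larger than these upper limits lies outside the intervals of these 2 RNAs, while smaller changes in either direction lie within them. Neither RNA was called, with 0 of 2 at an adjusted p under 0.05, 0 of 2 at an unadjusted p under 0.05 and 0 of 2 called by DESeq2. Over all 13793 genes tested in all cells, edgeR called 0.0363%, which were 0 higher and 5 lower with inhibitors, while 907 had an unadjusted p under 0.05 and DESeq2 called 39. This background depended on single animals: edgeR called 21 genes higher and 33 lower without untreated replicate 1, 8 and 42 without untreated replicate 2, 1 and 0 without treated replicate 1, and 0 and 0 without treated replicate 2. With equal cells per class it called 2 higher and 55 lower.

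In the sums over all cells as recovered, the 2 animals of each group differed in Snhg6 by more than counting error, with inhibitors only narrowly. Exact Poisson 95% intervals, which cover counting error only, ran from 36.9 to 48.7 CPM in replicate 1 and from 24.4 to 33.1 CPM in replicate 2 without inhibitors. With inhibitors they ran from 39.1 to 51.7 and from 28.9 to 39.0 CPM. With each class held to the same number of cells in every animal, the values were 43.9 and 33.9 CPM without and 45.6 and 33.3 CPM with inhibitors. The order of the replicates remained. These sums rested on 184 and 142 UMIs without and 184 and 115 with inhibitors, and their counting error was not computed. By class, replicate 1 was the higher in both groups in 4 of 8 classes. Olfactory ensheathing-like cells, seen only in those replicates, held 4 Snhg6 UMIs in all. Replicates carry only a number on the labels, and the part of dissection or library in this difference was not tested.

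**Figure D1:**
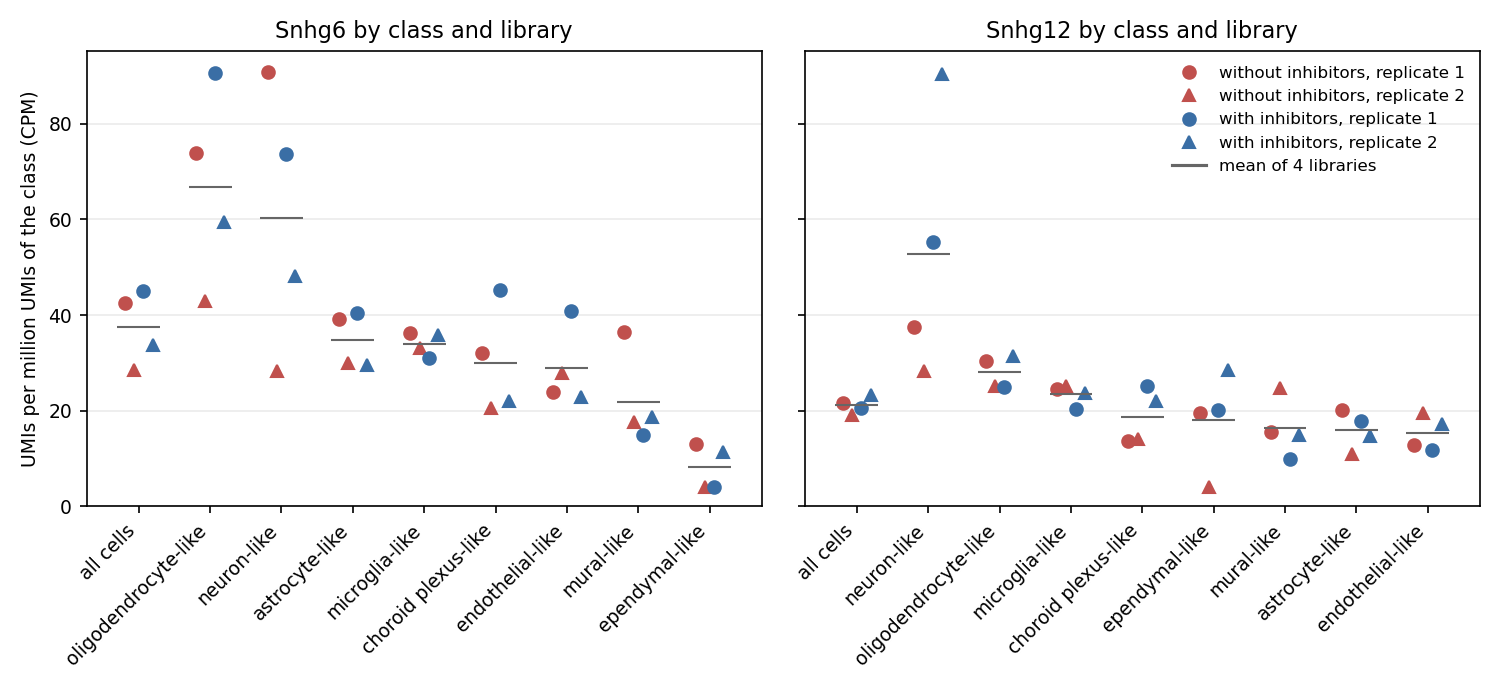
Level of Snhg6 (left) and Snhg12 (right) in each library, in CPM by total UMIs of all cells or of a class, for the 8 tested classes ordered by their mean. Points are single animals, colour marks the group, shape marks the replicate and the bar is the mean of 4 libraries; by mean, Snhg6 was highest in oligodendrocyte-like cells (43.0 to 90.6 CPM) and lowest in ependymal-like cells (4.02 to 12.96 CPM).

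Across cell classes the comparison was repeated on sums per animal and class. Of 16 pairs of RNA and class, 11 passed the filter on low counts, 0 were called by edgeR, and 0 had an unadjusted p under 0.05. DESeq2 gave 0 calls and 0 pairs with an unadjusted p under 0.05, and it gave no adjusted p for either RNA in choroid plexus-like cells. The lowest edgeR adjusted p of the 11 was 0.60, and 7 of the 11 log2 fold changes were above 0. The share of all tested genes called between the groups was 0.0496% in astrocyte-like, 4.87% in choroid plexus-like, 0.036% in endothelial-like, 0% in ependymal-like, 0.537% in microglia-like, 0.111% in mural-like, 0% in neuron-like and 0.2% in oligodendrocyte-like cells. Where 0 genes were called, edgeR gave an unadjusted p under 0.05 for 170 of 4141 genes tested in ependymal-like cells. In neuron-like cells it did so for 79 of 3458, and DESeq2 called 0 in both classes.

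In microglia-like cells, the class with the most cells, Snhg6 had 36.2 and 33.1 CPM by total UMIs without and 31.0 and 35.9 CPM with inhibitors, and the groups overlapped. Its log2 fold change was -0.07 (SE 0.24, edgeR adjusted p 0.993). Snhg12 had 24.5 and 25.2 CPM without and 20.3 and 23.6 CPM with inhibitors, so both treated animals lay below both untreated ones. The log2 fold change of -0.20 (SE 0.29, edgeR adjusted p 0.986) had a 95% interval from -0.76 to 0.37. The immediate-early mRNAs fell in the same cells, as shown by Junb above.

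Oligodendrocyte-like cells, which make myelin, had the highest mean level of Snhg6 among the 8 tested classes. The 4 values were 74.0 and 43.0 CPM without and 90.6 and 59.4 CPM with inhibitors, and the groups overlapped. The gap between the 2 animals of a group was larger than that between the groups. The log2 fold change of 0.31 (SE 0.25) had a 95% interval from -0.18 to 0.81 and was not called by edgeR (adjusted p 0.742). Without replicate 1 of the untreated animals it was 0.78 (edgeR adjusted p 0.471) and without their replicate 2 it was 0.016. Without replicate 1 of the treated animals it was 0.038, and without their replicate 2 it was 0.585 (edgeR adjusted p 0.830), so the size rested on single animals. Snhg12 had 30.5 and 25.1 CPM without and 24.99 and 31.5 CPM with inhibitors in these cells, a log2 fold change of 0.06 (SE 0.33, edgeR adjusted p 0.986).

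Choroid plexus-like cells, the epithelium that secretes cerebrospinal fluid, had the largest edgeR change of Snhg12 among the classes in which it passed the filter. It had 13.7 and 14.1 CPM without and 25.1 and 22.0 CPM with inhibitors, and the groups did not overlap. These levels rested on 20 UMIs without and 15 with inhibitors, and the log2 fold change of 0.60 (SE 0.54, 95% interval from -0.49 to 1.70) was not called by edgeR (adjusted p 0.60). Snhg6 had 32.0 and 20.5 against 45.2 and 22.0 CPM, with overlap and a log2 fold change of 0.33 (SE 0.41, edgeR adjusted p 0.733). This class had 4.87% of its genes called, the highest share among the classes. Its libraries held 655242 and 780021 UMIs without and 398505 and 227184 with inhibitors. The class joined a cluster with a median depth of 1943 UMIs per cell and another of 12098. The deeper cluster had 12 and 20 cells without and 5 and 3 with inhibitors. The part of this make-up in any change reported for the class was not tested.

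Neuron-like cells gave the widest spread. Snhg6 had 90.9 and 28.3 CPM without and 73.6 and 48.2 CPM with inhibitors, a log2 fold change of -0.13 (SE 0.75, edgeR adjusted p 1). Snhg12 had 37.4 and 28.3 CPM without and 55.2 and 90.5 CPM with inhibitors, with no overlap. It rested on 10 UMIs without and 21 with inhibitors, stayed below the count filter of edgeR, and had an unadjusted p of 0.303 in DESeq2, a model fitted across all genes. These sums held 105868 to 186918 UMIs per animal, so 3 counts correspond to 16.0 to 28.3 CPM.

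In astrocyte-like cells Snhg6 had 39.1 and 29.98 CPM without and 40.4 and 29.5 CPM with inhibitors, and Snhg12 had 20.2 and 11.0 against 17.8 and 14.8 CPM. Endothelial-like cells had 23.9 and 28.0 against 40.8 and 23.0 CPM of Snhg6, and 12.7 and 19.5 against 11.8 and 17.2 CPM of Snhg12. The groups overlapped in all 4 of these comparisons, with log2 fold changes from -0.20 to 0.16 and edgeR adjusted p from 0.980 to 0.996. Ependymal-like and mural-like cells held 6 to 20 UMIs of either RNA over all libraries and were below the count filter of edgeR. In ependymal-like cells Snhg12 had 19.4 and 4.07 CPM without against 20.1 and 28.6 CPM with inhibitors, and in mural-like cells 15.6 and 24.7 against 9.93 and 14.9 CPM.

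Counted over the 8 classes, the groups did not overlap for Snhg12 in 5, with inhibitors higher in 3 and lower in 2, and for Snhg6 in 0. Among all pairs of gene and class with at least 5 UMIs, 34.1% of 91121 did not overlap, so the 5 of 16 for these RNAs lie near the background. For 2 animals against 2 the smallest p of an exact permutation test (two-sided) is 0.333, and none was run. Whether the change differed between classes was tested directly, with all 7 class-by-group terms of 1 edgeR fit. Neither RNA was called, with an adjusted p of 1 for both (unadjusted 0.898 for Snhg6 and 0.284 for Snhg12), against 0.392% of 13016 genes called.

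**Figure D2:**
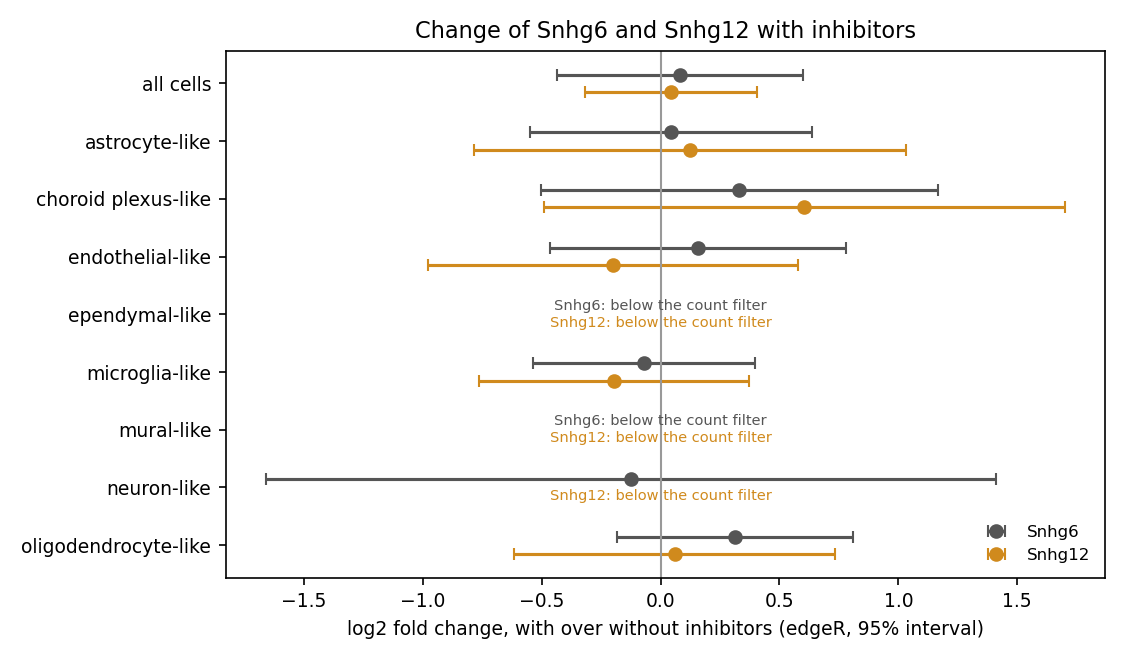
Log2 fold change of Snhg6 and Snhg12, with over without inhibitors, in all cells and in each tested class; points are edgeR estimates and bars their 95% intervals, with 2 animals a group. Every interval shown spans 0, from the narrowest in all cells (Snhg12, -0.32 to 0.40) to the widest in neuron-like cells (Snhg6, -1.66 to 1.41).

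The levels themselves differed between classes. Ordered by the mean of 4 libraries in CPM by total UMIs, Snhg6 ran from oligodendrocyte-like (66.8 ± 20.3, SD, n = 4) through neuron-like (60.3 ± 27.6), astrocyte-like (34.7 ± 5.80), microglia-like (34.0 ± 2.48), choroid plexus-like (29.9 ± 11.4), endothelial-like (28.9 ± 8.23) and mural-like (21.9 ± 9.78) to ependymal-like cells (8.12 ± 4.74). Ranges of neighbours in this order overlapped in 6 of 7 pairs, and they were separate only between mural-like (14.9 to 36.4 CPM) and ependymal-like cells. This separation rested on 20 UMIs in mural-like and 6 in ependymal-like cells. The Poisson 95% intervals of their libraries overlapped, so it lies within counting error. Snhg12 ran from neuron-like (52.9 ± 27.4) and oligodendrocyte-like (28.0 ± 3.44) through microglia-like (23.4 ± 2.16), choroid plexus-like (18.7 ± 5.70), ependymal-like (18.1 ± 10.2), mural-like (16.3 ± 6.15) and astrocyte-like (15.9 ± 3.98) to endothelial-like cells (15.3 ± 3.64), and all 7 pairs of neighbours overlapped. Snhg6 spanned a wider range of class means than Snhg12.

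Each class was then compared with the mean of the other 7 in 1 edgeR fit with the animal as a block, after these levels had been seen. The classes came from clustering of the same cells with these 2 RNAs left out. Snhg6 was higher in oligodendrocyte-like cells by 1.503 on the log2 scale (SE 0.17, adjusted p 8.16e-19) and lower in ependymal-like cells by a difference of -2.55 (SE 0.45, adjusted p 6.12e-08). The ependymal-like value rests on 6 UMIs. Snhg6 failed the count filter of that class and entered this fit through a filter over the sums of all classes. Its 4.02 to 12.96 CPM there lay below the level of 3 counts in each library (12.1 to 19.4 CPM). The oligodendrocyte-like difference lay above 90.1% of all genes in the same contrast, and the ependymal-like difference above 6.59% of them. Both calls were also made with scaling by total UMIs alone (1.30 and -2.31) and without each animal in turn. Calls in such contrasts were common: 43.5% of 13016 genes were called in oligodendrocyte-like and 42.1% in ependymal-like cells.

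Snhg12 was called higher in oligodendrocyte-like cells by 0.65 (SE 0.22, edgeR adjusted p 0.00749) and in neuron-like cells by 0.86 (SE 0.32, edgeR adjusted p 0.0164), where 45.6% of genes were called. The neuron-like value rests on 31 UMIs, and Snhg12 failed the count filter of that class. Scaling by total UMIs alone gave 0.43 in oligodendrocyte-like cells, which was not called (edgeR adjusted p 0.0814). Without replicate 2 of the inhibitor-treated animals, the neuron-like value was 0.43 and not called (edgeR adjusted p 0.452). Snhg6 was called in choroid plexus-like cells at 0.63 (SE 0.24, edgeR adjusted p 0.0174), against 48.2% of all genes, but scaling by total UMIs turned it to -0.050. This change of scale moved the median of all genes in this class from -0.29 to -0.94, and 73.6% and 73.0% of genes lay below Snhg6 under the 2 scalings. Snhg12 was not called in the other classes, but without replicate 1 of the untreated animals it was called lower in astrocyte-like cells (-0.69, edgeR adjusted p 0.0400), and without their replicate 2 in endothelial-like cells (-0.70, edgeR adjusted p 0.0271). The choroid plexus-like call of Snhg6 was also lost without replicate 1 of either group (edgeR adjusted p 0.0599 without and 0.196 with inhibitors). In neuron-like cells total UMIs moved the median from -0.018 to 0.64 and Snhg6 from 0.55 (edgeR adjusted p 0.106) to 1.21, which was called.

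**Figure D3:**
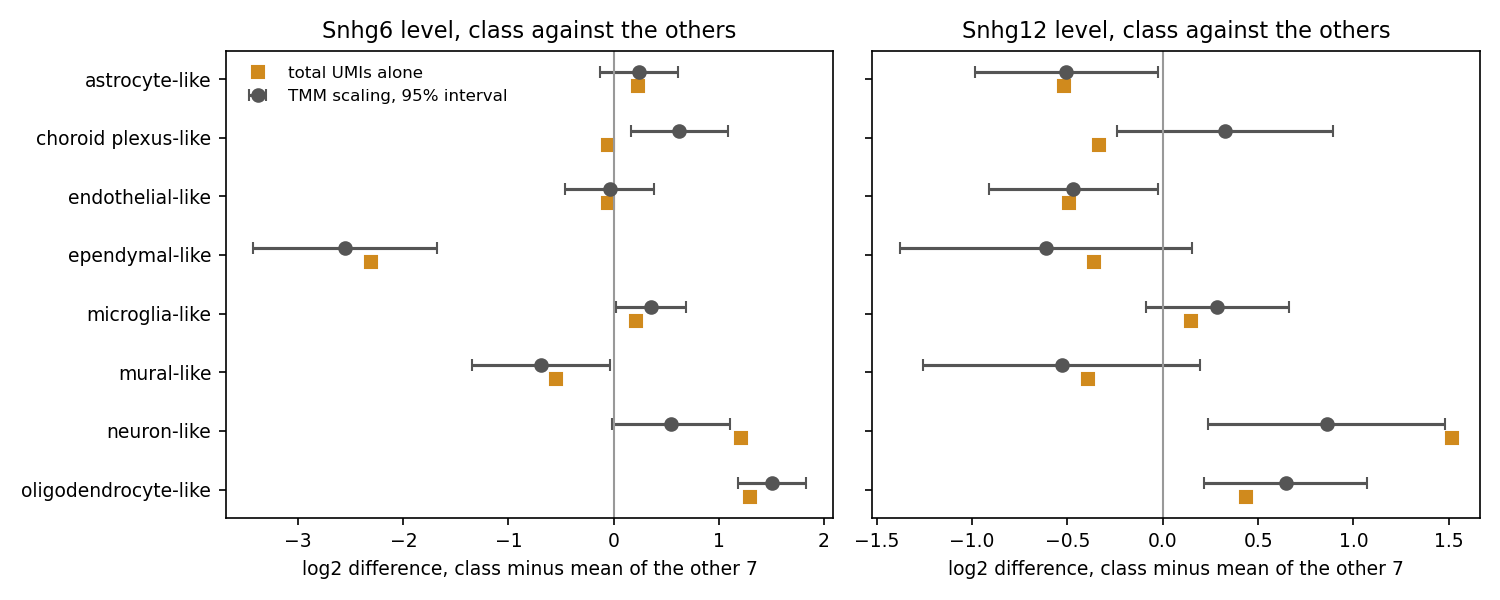
Log2 difference in level of Snhg6 (left) and Snhg12 (right) between each tested class and the mean of the other 7, with all 4 animals in 1 edgeR fit. Circles with bars are estimates with TMM scaling and their 95% intervals, and squares are scaled by total UMIs alone. Snhg6 was called in oligodendrocyte-like cells (1.503 and 1.30) and in ependymal-like cells (-2.55 and -2.31) under both. The ependymal-like values rest on 6 UMIs of Snhg6, below the count filter of that class. In neuron-like cells (0.55 and 1.21) it was called with total UMIs alone, at a value near that of oligodendrocyte-like cells.

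Detection per cell was compared at a fixed depth. With every cell thinned to 1000 UMIs, which left 8424 cells, Snhg6 was seen in 4.79% to 7% of oligodendrocyte-like cells and 3.07% to 4.07% of microglia-like cells of a library. At full depth the shares were 12.4% to 25.1% and 4.27% to 5.23%, where oligodendrocyte-like cells were deeper. Erythrocyte-like cells, whose mature form has no nucleus, held 5 UMIs of Snhg6 and 1 of Snhg12 in 73 cells, with median depths of 4640 to 6172 UMIs. Thinned to 1000 UMIs, 0% to 4.76% of them had Snhg6. The upper value was 1 of 21 cells in replicate 1 without inhibitors. The other libraries had 0 of 33 cells without inhibitors, and 0 of 5 and 0 of 11 with them. The shares in astrocyte-like (1.77% to 4.15%), choroid plexus-like (2.27% to 4.62%), endothelial-like (2.26% to 4.29%), microglia-like and ependymal-like cells (0% to 2%) lie within that range. Those in neuron-like (0% to 11.1%) and mural-like cells (0% to 5%) reached above it, and those in oligodendrocyte-like cells lay above it. As 1 cell sets the upper end of the erythrocyte-like range, that range is a weak background. These shares alone were read neither as expression nor as its absence. By level, erythrocyte-like cells had 17.4 and 0 CPM of Snhg6 without and 55.1 and 18.4 CPM with inhibitors, a mean of 22.7 CPM. The 55.1 CPM came from 2 UMIs in 5 cells, where 3 counts correspond to 82.6 CPM. No place in the order given earlier is read from this mean. No cell held more than 4 UMIs of either RNA. At 1000 UMIs, 298 cells had Snhg6, 181 had Snhg12 and 8 had both, where 6.40 would be found if the 2 were independent. At this depth a joint pattern in single cells was not detectable.

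Genes whose levels ran most like the mean of Snhg6 and Snhg12 were ranked by Pearson correlation of log2(CPM + 1) over 32 sums of animal and class, among 1594 other genes that passed the filter in every class. They were Tomm20, a receptor of mitochondrial protein import (r = 0.817), Napa, a factor of membrane fusion (0.781), the deubiquitinase Otub1 (0.692), the ubiquitin ligase adaptor Ndfip2 (0.689) and the vesicle protein Vamp2 (0.668). The 32 sums share 4 libraries and 8 classes, so these values describe likeness only. Snhg6 and Snhg12 correlated with each other at r = 0.561 over the same sums.

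Other genes around the pathway were described as lists, by counts and medians beside those of all genes. Of the other noncoding snoRNA hosts, 5 were tested in all cells and 0 were called, with a median log2 fold change of 0.09 against 0.014 for all genes. Snhg20 had 76.3 and 83.8 CPM (TMM) without and 77.8 and 83.2 CPM with inhibitors. Snhg9 had 46.4 and 41.5 against 53.6 and 39.7 CPM on that scale. In microglia-like cells 3 of these hosts were tested, 0 were called, and the log2 fold changes were 0.26 to 0.34. In choroid plexus-like cells Epb41l4aos, another noncoding host, had a log2 fold change of 1.76 that edgeR did not call (adjusted p 0.108). With a 10% mitochondrial limit it was called higher at 2.25 (edgeR adjusted p 0.0164), and under the other settings run the adjusted p stayed above 0.05 or none was given.

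Coding snoRNA hosts, mostly ribosomal proteins and translation factors, had 0 of 21 called in all cells (median 0.010) and 0 of 21 in microglia-like cells (median -0.026). In choroid plexus-like cells 1 of 20 rose and 1 fell, 13 lay above 0 and the median was 0.22. In edgeR 11 of the 20 had an unadjusted p under 0.05, against 931 of all 4641 genes tested in this class. The groups did not overlap for 16. The share without overlap was not counted for this class alone, so the 16 are not read as a result about these hosts. Calls in this class depended on the scaling: over all genes 38 were higher and 188 lower, against 117 and 77 with total UMIs alone, which moved the median of all genes from 0.017 to 0.19 and gave 4 coding hosts higher and 0 lower. Rpl4, a protein of the large ribosomal subunit, had 436 and 456 CPM (TMM) without and 665 and 731 CPM with inhibitors (log2 fold change 0.63, edgeR adjusted p 3.25e-04). Hspa8, a chaperone, had 1318 and 1512 against 858 and 836 CPM (log2 fold change -0.74, edgeR adjusted p 4.85e-06). With total UMIs alone Rpl4 was called at 0.81, and Hspa8, at -0.57, missed the fold limit. Rpl4 was not called without replicate 1 of the untreated animals (0.579), with a 10% mitochondrial limit (0.51) or with thinning to 1000 UMIs (0.43). Unlike Snhg6 and Snhg12, both encode proteins.

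The factors of nonsense-mediated decay had 0 of 10 called in all cells, with a median of 0.10. Upf1, the helicase at its centre, had 29.5 and 29.9 CPM (TMM) without and 33.6 and 41.1 CPM with inhibitors, a log2 fold change of 0.33 (SE 0.14, unadjusted p 0.0451 in edgeR) that was not called after adjustment. Between 2 and 10 of these factors passed the filter in each class and 0 were called by edgeR, where 1 factor had an unadjusted p under 0.05 in astrocyte-like and 1 in endothelial-like cells. Nuclear long noncoding RNAs, which ribosomes do not reach, had 0 of 6 called in all cells (median -0.0099). In choroid plexus-like cells 2 of 4 fell, Malat1 from 2300 and 2408 to 729 and 946 CPM (log2 fold change -1.52, edgeR adjusted p 6.60e-12) and Neat1 from 84.3 and 84.3 to 32.1 and 35.0 CPM (-1.34, edgeR adjusted p 0.00567). Both were called with total UMIs alone, and neither with a 10% mitochondrial limit (Malat1 -0.995 and Neat1 -0.79, edgeR adjusted p 0.429 and 0.565). The call of Malat1 was also lost with doublets kept (edgeR adjusted p 0.129), and that of Neat1 without replicate 1 of the treated animals (edgeR adjusted p 0.174). Summed over this list, choroid plexus-like cells held 2091 and 2463 CPM by total UMIs without and 808 and 1043 CPM with inhibitors. In the other tested classes these sums ran from 25145 to 152802 CPM. The part of this low level in the changes reported for choroid plexus-like cells was not tested. The genome neighbours of the 6 chosen RNAs had 0 of 4 called in all cells, with Trnau1ap at 42.5 and 44.6 against 45.5 and 42.1 CPM by total UMIs.

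Of 10 short-lived immediate-early mRNAs tested in all cells, 2 were called, both lower with inhibitors, with a median of -1.92. In microglia-like cells 7 of 9 were called lower, with a median of -3.02, and in endothelial-like cells 0 of 7 were called by edgeR and 0 had an unadjusted p under 0.05, with a median of 0.16. The consensus activation list of the study had 2 of 25 called lower in all cells and 17 of 24 in microglia-like cells. A second list, picked by the study from these libraries, had 4 of 19 and 14 of 17 called lower and is not independent evidence of its direction. In microglia-like cells the medians were -2.43 and -2.88. Snhg6 and Snhg12 were at -0.07 and -0.20 in those cells, where the median of all genes was 0.0026.

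**Figure D4:**
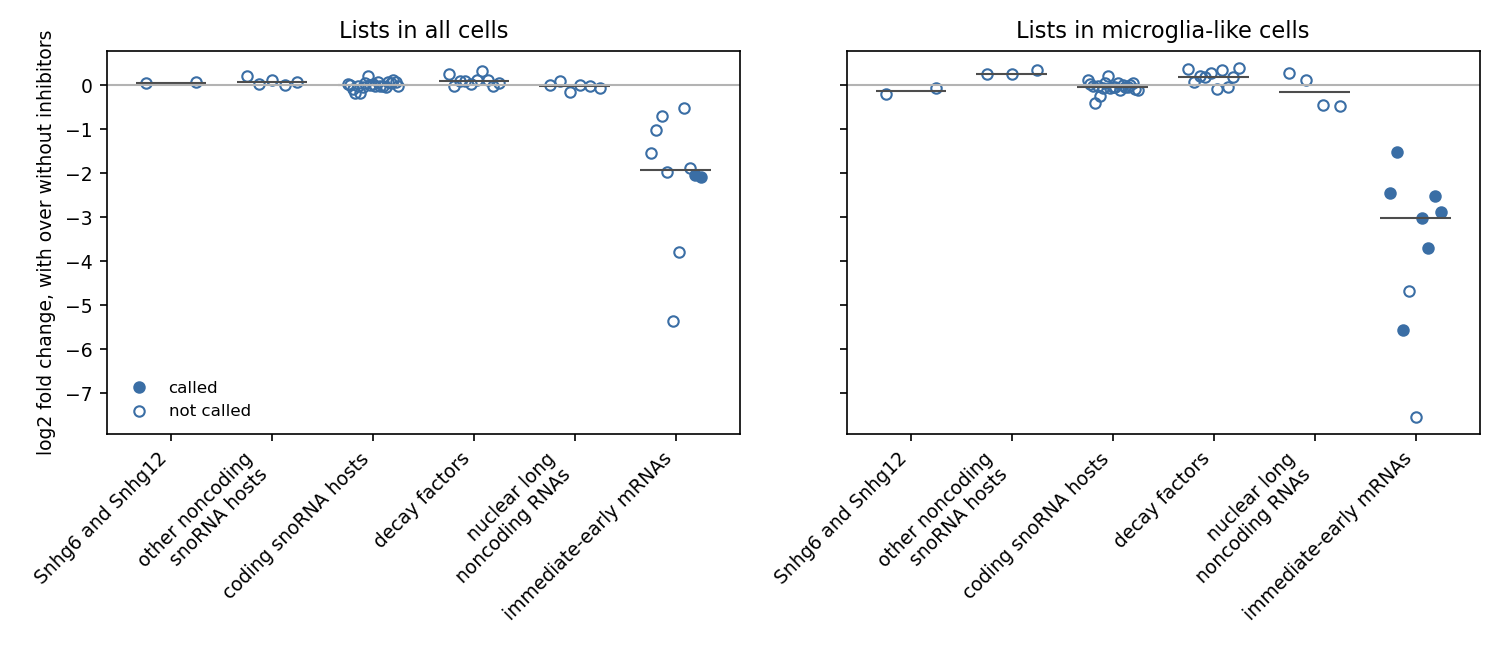
Log2 fold change, with over without inhibitors, of each tested gene in 6 lists, in all cells (left) and microglia-like cells (right). Each circle is 1 gene from the edgeR fit, filled where called, and bars are list medians; immediate-early mRNAs lie at medians of -1.92 and -3.02, while Snhg6 and Snhg12 lie between -0.20 and 0.08.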

How the data were processed

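The authors made the deposited count matrices (raw UMI counts per gene and barcode) with Cell Ranger 3.0.0 on the mm10 genome, with a filtered Ensembl annotation. This measures RNA near its 3′ end. Barcodes were kept with at least 400 genes and at most 20% of UMIs from mitochondrial genes, less 206 scored as doublets against simulated ones. Leiden clustering (leidenalg 0.10.2, resolution 1) on 30 principal components of 2000 variable genes, in log counts, gave 30 clusters, with 37 genes, the members and activation genes, left out. A cluster was named by at least 3 markers and stayed unnamed where its top 10 genes held more markers of another type, a limit set with the clusters in view. The chosen RNAs, lists and tests were set with earlier results of these data known.

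UMI counts were summed per animal, in all cells and in each class. The main test was the robust quasi-likelihood F test of edgeR 4.0.16 (R 4.3.3) with group as the only term, TMM scaling and the filterByExpr filter. A call needed an adjusted p (Benjamini-Hochberg, over all genes) under 0.05 and a log2 fold change beyond 0.58 in either direction. DESeq2 1.42.0 was an alternative. Fold changes are with over without inhibitors. Class levels used 1 fit with animal and class, added after the levels were seen. Scripts were tested on simulated data. Named genes were both RNAs in every class, called genes of the lists (at most the 5 largest changes a list), Fos, Junb and Dusp1, and the 5 most alike genes. Likeness to Gas5 was not analysed here. Upf1, Snhg9, Snhg20, Epb41l4aos, Trnau1ap and Mcmdc2 were named outside that rule, after their values were seen. Other called activation genes are given as counts. List genes in choroid plexus-like cells were compared across settings after their values were seen. Alternatives were other scalings, filters, cell sets, cluster resolutions and left-out animals. Sums held 4525167 to 6098914 UMIs per library, and Poisson intervals cover counting error only. Sequences and annotation came from GENCODE vM21 on GRCm38, the build of the files. Its release differs from the annotation used for counting.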

Additional observations from a re-analysis of the deposited data

How the results depend on the processing

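The count of called members was 0 in all cells, 0 across classes and 0 for differences between classes under every alternative run, the left-out animals included (lowest 0, highest 0). With the replicate block the counts were 0 and 0, while over all genes in all cells calls went from 5 to 49. Replicates share only a number: deviations of same-numbered animals correlated at 0.176 over genes in all cells and at -0.181 to 0.113 within classes. Signs turned for Snhg6 in all cells with equal cells per class (-0.034), in astrocyte-like cells with a 10% mitochondrial limit (-0.11) or thinning to 1000 UMIs (-0.12), in microglia-like cells with doublets kept (0.052) or thinning (0.29), in oligodendrocyte-like cells with thinning (-0.24) and in neuron-like cells with the replicate block (0.11). For Snhg12 thinning gave -0.086 over all cells and 0.21 in microglia-like cells. Leaving out 1 animal gave ranges across 0 for Snhg6 in all cells (-0.19 to 0.37), astrocyte-like (-0.17 to 0.23), choroid plexus-like (-0.39 to 0.73), endothelial-like (-0.21 to 0.57) and microglia-like cells (-0.20 to 0.028). For Snhg12 these were all cells (-0.076 to 0.14), astrocyte-like (-0.31 to 0.57), endothelial-like (-0.56 to 0.24) and oligodendrocyte-like cells (-0.18 to 0.21). Of the class levels, total UMIs alone turned both RNAs in choroid plexus-like cells (-0.050 and -0.34), and left-out animals turned Snhg6 in endothelial-like cells (-0.19 to 0.18). The causes were not tested. With 6 to 20 UMIs a class, ependymal-like and mural-like cells could show only large changes.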

Other observations

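Among classes with too few cells to test, precursor and progenitor cells held the most Snhg6 per UMI. Oligodendrocyte precursor-like cells had 168 and 130 CPM by total UMIs in 15 and 15 cells without inhibitors, and 167 and 0 CPM in 17 and 28 cells with inhibitors, from 21 UMIs in all. The library at 0 held 47978 UMIs in this class, for which 3 counts correspond to 62.5 CPM. Neural progenitor-like cells had 95.9 and 111 CPM without and 95.8 and 58.1 CPM with inhibitors, from 24 UMIs. Snhg12 had 63.9 and 37.0 CPM without and 68.4 and 29.0 CPM with inhibitors in the neural progenitor-like cells, and 41.9 and 43.2 against 23.9 and 41.7 CPM in the oligodendrocyte precursor-like cells. These values were not tested.

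Of the 790 genes that GENCODE vM21 types as processed transcripts, 10 (1.27%) have their identifier among the counted genes, against 93.3% of 5854 long intergenic noncoding RNAs and 99.8% of 21951 coding genes. Gas5, Snhg1, Snhg3 and Snhg8 are of the first type, and Snhg6 and Snhg12 of the second.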
